A study of Sus scrofa with 12 samples.

Results

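SIX-family transcription factors and their EYA-family coactivators are represented here by 7 genes, SIX2, SIX4, SIX5, EYA1, EYA2, EYA3 and EYA4, out of 21674 genes in the coding-gene table. They were found by symbol: an entry of the table belongs to the set when its symbol is one of these names. SIX4 entered because the study names it and because its level differs between the breeds, so SIX4 was chosen by the values of Ha vs La, Hb vs Lb and Ha vs Hb. The libraries of La and Lb took part in that choice too, so the values of SIX4 are given as a description with no test in all 4 comparisons. SIX3 and SIX6 are given for comparison.

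The samples are testes of Hezuo (HZ) boars, a miniature breed that matures early, and of Landrace (LC) boars, taken by castration at 30 or 120 days of age. The groups are Ha (30-day HZ), Hb (120-day HZ), La (30-day LC) and Lb (120-day LC), with 3 boars per group, 1 RNA-seq library per boar and 12 libraries in all. All boars were reared under the same conditions, and each library holds RNA of testis tissue, not of sorted cells. Ages were sampled in different boars, and library numbers do not link boars of different groups.

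SIX-family proteins bind DNA through a homeodomain and the conserved domain that names the family, and EYA proteins, which do not bind DNA themselves, join them as coactivators that also carry a phosphatase domain. With PAX and DACH proteins they form a network first described in eye development and also used in kidney, muscle, ear and gonad. In the fetal mouse gonad SIX4 acts ahead of SRY, partly through NR5A1 and ZFPM2, and male mice that lack SIX5, the gene beside DMPK, lose germ cells.

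Levels are given as counts per 1000000 counts of a library (CPM, scaled by TMM over the 12 libraries), with the mean ± SD of 3 libraries. The library totals were between 17165519 (Hb3) and 23758931 (Ha1) estimated counts. Changes are log2 fold changes ± SE of the second group over the first, from edgeR's quasi-likelihood test fitted on all genes. A gene is called when its Benjamini-Hochberg adjusted p over all genes tested is under 0.05 and its absolute log2 fold change is over 1. All 7 genes passed the filter on low counts in every comparison, and the 6 other than SIX4 are tested in each. A gene that reached the cutoff of the filter in no library of its lower group passed through the higher group alone, which fixes the sign of its change. This held for 0 of the calls of the 6 genes, and for other named genes of that kind the values are given as a description. SIX2 in Ha vs Hb came close, as it passed mostly through Hb, with 1 Ha library and 3 Hb libraries at the cutoff.

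The scale of the age comparisons depends on the scaling. With TMM the median log2 fold change of all genes tested was -0.020 between the HZ ages and 0.011 between the LC ages. With total counts it was -0.32 and -0.16, and on log2(FPKM + 0.1) of the authors' values it was -0.47 and -0.27. Between the HZ ages 54.8% of all calls were higher at 120 days with TMM, 44.1% with total counts and 38.5% on log2(FPKM + 0.1). Between the LC ages these shares were 57.7%, 50.7% and 46.1%.

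Marker genes described the tissue. The summed level of 10 spermatid markers was 4.99, 5.57 and 6.504 CPM in Ha, 6452, 5763 and 8175 CPM in Hb, 8.91, 7.79 and 4.49 CPM in La, and 4177, 3430.3 and 3123 CPM in Lb. Spermatids, the cells that follow meiosis, thus had nearly no marker RNA at 30 days in either breed, and PRM1 was the most abundant gene of the list at 120 days with 2398 CPM in Hb and 1191 CPM in Lb. All 8 spermatocyte markers and all 9 spermatid markers tested were called higher at 120 days in both breeds, although 3 of the spermatid markers in HZ testes and 4 in LC testes passed the filter through the 120-day libraries alone. The spermatocyte sum, led by PIWIL1, was 29.2 CPM in Ha, 698 in Hb, 14.4 in La and 491 in Lb. The spermatogonia sum was 347, 825, 228 and 661 CPM in Ha, Hb, La and Lb. DDX4, which later germ cells also express, led it at 120 days only, with 20.6, 566, 13.3 and 388 CPM in these groups. Of the 11 spermatogonia markers 3 were called higher and 6 lower in Ha vs Hb (beside 28.2% and 23.2% of all genes). In La vs Lb 4 were called higher and 5 lower (beside 27.5% and 20.1%).

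The summed levels of somatic markers were lower at 120 days. The 10 peritubular and stromal markers, led by COL3A1, summed to 4737, 4613 and 4523 CPM in Ha, 601, 352 and 254 in Hb, 6939, 6220.4 and 7755 in La, and 3071, 2989 and 2545 in Lb. Of these 10, 8 were called lower in Ha vs Hb, beside 23.2% of all genes. In La vs Lb 5 were called lower and 1 higher (beside 20.1% and 27.5%). Between the breeds 5 were called higher in Lb than in Hb, beside 3.85% of all genes called in either direction. The 8 Sertoli cell markers, led by INHA, had mean sums of 1386, 480.3, 2952 and 662 CPM in Ha, Hb, La and Lb. Of them, 4 were called lower at 120 days in each breed (beside 23.2% of all genes for HZ and 20.1% for LC testes). Another 3 calls were higher in La than in Ha, beside 7.62% of all genes called in either direction. The 7 Leydig cell markers, led by CYP17A1, had mean sums of 9505, 1539, 11515 and 5109 CPM, and Hb1 stood apart in its group with 4021 CPM against 329.9 in Hb2 and 266 in Hb3. Endothelial markers (5 genes, led by VWF) had 658, 219.7, 734 and 361 CPM, and macrophage markers (5 genes, led by CSF1R) 110.8, 16.0, 116 and 31.5 CPM.

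Markers of skeletal muscle and kidney, tissues that use these genes, were also summed. Skeletal muscle markers (6 genes, led by ACTA1 at 120 days) summed to 8.71, 9.86, 9.54 and 37.1 CPM in Ha, Hb, La and Lb. Among them, MYH4 and TNNT3 were at 3 counts or fewer in every library and at 0 in Hb and Lb. ACTA1, the actin of skeletal muscle fibres, had mean levels of 0.0260 CPM in Ha, 8.93 in Hb, 0.0438 in La and 34.7 in Lb. Of 4 muscle markers tested with age, 1 was called higher and 2 lower in HZ testes (beside 28.2% and 23.2% of all genes). In LC testes 1 was called higher and 1 lower (beside 27.5% and 20.1%). Each of these passed the filter through its higher group alone. Of 2 tested in Hb vs Lb, 1 was called higher in Lb, beside 3.85% of all genes called. The part of these markers in the results was not tested. Kidney and epididymis markers (6 of 7 in the table, led by CDH16 at 120 days) summed to 1.75, 4.97, 1.24 and 5.49 CPM, with LCN5 and NPHS1 at 0 in Ha. Of these, 1 of 2 tested was called higher at 120 days in each breed (beside 28.2% of all genes for HZ and 27.5% for LC testes). In LC testes it passed the filter through Lb alone. In testis tissue, fewer cells of a type and less RNA per cell cannot be told apart. Cell composition moves with age, and its part in the results for the SIX-family and EYA-family genes was not tested.

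Between ages, EYA2, EYA3 and SIX2 rose in HZ testes while EYA4 and SIX5 fell, and in LC testes EYA2 rose while EYA4 and SIX5 fell. In Ha vs Hb 5 of 6 genes tested were called. Of these, 3 were higher, beside 28.2% of all genes called higher, and 2 were lower, beside 23.2% of all genes called lower. In La vs Lb 3 of 6 were called, 1 higher beside 27.5% of all genes and 2 lower beside 20.1%. The median log2 fold change of the genes tested was 1.16 between the HZ ages and -0.26 between the LC ages. EYA3 and SIX2 were called in HZ testes and not in LC testes, and the tests of breed by age are given with the breed results.

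EYA2, a coactivator with a phosphatase domain, had 10.8, 7.23 and 7.95 CPM in Ha, 473, 319 and 518 in Hb, 8.52, 6.98 and 6.88 in La, and 294, 277 and 187 in Lb. Every 120-day library was far above every 30-day library, and the breeds were close to each other at 30 days. The means were 8.66 ± 1.89 CPM in Ha, 437 ± 105 in Hb, 7.46 ± 0.921 in La and 253 ± 57.3 in Lb. EYA2 rose 51.0-fold in HZ testes (log2 fold change 5.67 ± 0.28, adjusted p = 5.4e-06) and 34.7-fold in LC testes (5.12 ± 0.20, adjusted p = 2.05e-07). Its log2 fold change lay at percentile 94.0 of all genes tested for HZ testes and at 92.8 for LC testes, so it was among many genes with rises of that order. The estimated counts behind it were 179 to 281 in Ha, 6895 to 8251 in Hb, 138 to 199.8 in La and 3688 to 6379 in Lb.

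EYA3, a widely expressed member of the family, had 70.1, 73.9 and 68.3 CPM in Ha, 183, 142 and 178 in Hb, 58.4, 74.0 and 72.9 in La, and 137, 110 and 111 in Lb. The 120-day libraries lay above the 30-day libraries in both breeds with no overlap. EYA3 rose 2.40-fold in HZ testes (1.26 ± 0.14, adjusted p = 0.000175). In LC testes its log2 fold change was 0.84 ± 0.14 (adjusted p = 0.000621), which is under the fold threshold. Between the HZ ages its value was also under that threshold with total counts (0.95), on log2(FPKM + 0.1) (0.76) and on log2(FPKM + 1) (0.71), although the sign was kept in each.

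EYA4, the member known for hereditary hearing loss and dilated cardiomyopathy in humans, moved the other way. It had 14.2, 15.3 and 19.4 CPM in Ha, 1.15, 2.82 and 4.91 in Hb, 11.6, 15.4 and 18.9 in La, and 6.96, 1.87 and 3.86 in Lb. All 30-day libraries were above all 120-day libraries, and the spread at 120 days was wide for its level, with means of 2.96 ± 1.89 CPM in Hb and 4.23 ± 2.56 in Lb. Its log2 fold change was -2.45 ± 0.47 in HZ testes (adjusted p = 0.00264) and -1.81 ± 0.43 in LC testes (adjusted p = 0.00502).

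EYA1, mutated in branchio-oto-renal syndrome, had the lowest mean FPKM of the EYA genes in each group. In single libraries EYA4 was lower in Hb1 (0.09 against 0.23 FPKM) and in Lb2 (0.16 against 0.18). EYA1 had 4 to 32 counts per library. Its means were 0.682 ± 0.547 CPM in Ha, 1.42 ± 0.487 in Hb, 1.22 ± 0.243 in La and 0.879 ± 0.633 in Lb, and groups overlapped in every comparison. The log2 fold change was 1.06 ± 0.70 with age in HZ testes (adjusted p = 0.210) and -0.43 ± 0.62 in LC testes (adjusted p = 0.552), and neither passed the test. Over the alternatives run it was between 0.11 and 1.82 in HZ testes. In LC testes it was between -0.97 and 0.06, so the sign was not kept. In Ha the counts were 4, 16 and 32, a wide spread between replicates.

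**Figure D1:**
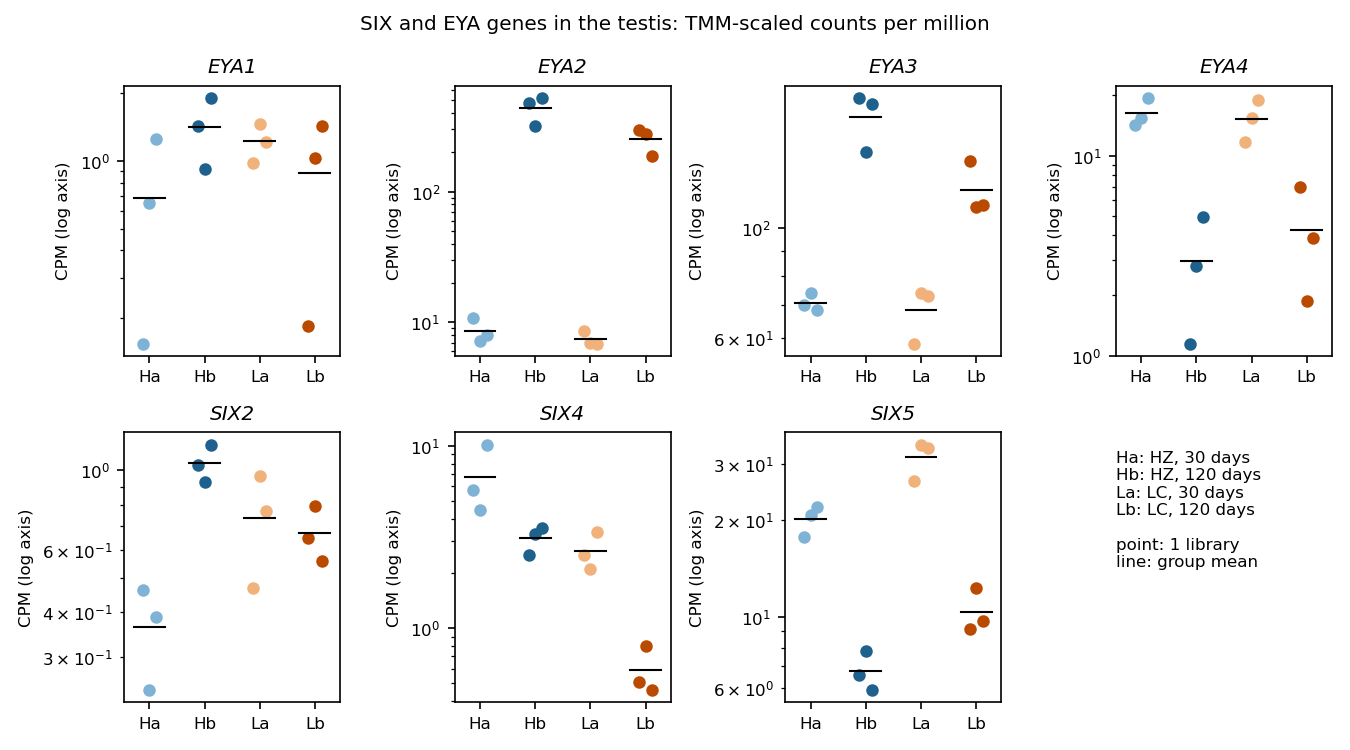
Levels of the 7 SIX-family and EYA-family genes in each library, in CPM on log axes, by group (Ha, Hb, La, Lb), where a point is a library and a line the mean of 3. EYA2 lies between 6.88 and 10.8 CPM at 30 days and between 187 and 518 CPM at 120 days.

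SIX5, a homeodomain factor next to DMPK, had 17.8, 20.8 and 22.0 CPM in Ha, 6.59, 7.81 and 5.89 in Hb, 26.6, 34.4 and 33.7 in La, and 9.12, 12.3 and 9.71 in Lb. The 4 groups did not overlap at all, and LC testes were above HZ testes at each age. SIX5 fell 2.95-fold in HZ testes (-1.56 ± 0.19, adjusted p = 0.000290) and 2.96-fold in LC testes (-1.57 ± 0.18, adjusted p = 7.96e-05). Both changes kept their call in every alternative that was run.

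SIX4, a homeodomain factor of muscle, kidney and gonad development, was counted 149, 110 and 261 times in Ha, 44, 71 and 54 times in Hb, 59, 42 and 83 times in La, and 11, 17 and 9 times in Lb. In CPM this was 5.72, 4.44 and 10.2 in Ha, 2.52, 3.28 and 3.54 in Hb, 2.51, 2.12 and 3.36 in La, and 0.507, 0.795 and 0.457 in Lb. Each HZ library was above each LC library of the same age, and each 30-day library was above each 120-day library of the same breed. As a description, the ratio was 2.55 for Ha over La (log2 fold change -1.35 ± 0.34), 5.12 for Hb over Lb (-2.36 ± 0.42) and 2.16 for Ha over Hb (-1.11 ± 0.37). On log2(FPKM + 1) these values were -0.50, -0.30 and -0.55, and on log2(FPKM + 0.1) that of Hb vs Lb was -1.30. Ha3 was the highest library, and without it the log2 fold change was -0.70 in Ha vs Hb and -0.94 in Ha vs La.

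For La over Lb the ratio of SIX4 was 4.39 (-2.14 ± 0.38), with 2.67 ± 0.632 CPM in La and 0.586 ± 0.182 in Lb, and the value was -0.35 on log2(FPKM + 1) and -1.45 on log2(FPKM + 0.1). The difference between the breeds in the change with age, LC over HZ testes, was -1.04 ± 0.52 on the log2 scale, again with no test.

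SIX2, which keeps nephron progenitors undifferentiated in the kidney, was counted 6 to 20 times per library. It had 0.461, 0.242 and 0.389 CPM in Ha, 1.03, 0.925 and 1.18 in Hb, 0.469, 0.961 and 0.769 in La, and 0.645, 0.795 and 0.559 in Lb. Ha was the low group, and La1 was close to the highest Ha library. In Ha vs Hb 1 Ha library and 3 Hb libraries reached the cutoff of the filter, so SIX2 passed mostly through Hb. In HZ testes its log2 fold change was 1.51 ± 0.43 (adjusted p = 0.0156), while in LC testes it was -0.09 ± 0.42 (adjusted p = 0.859). The call in HZ testes was lost without Ha2 (1.29, adjusted p = 0.0765), without Ha3 (1.56, adjusted p = 0.0512), on log2(FPKM + 0.1) (0.83) and on log2(FPKM + 1) (0.27). Over the alternatives run for SIX2 in Ha vs Hb its adjusted p was between 0.00698 and 0.0765.

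Between breeds none of the 6 genes tested was called at either age. At 30 days (Ha vs La) edgeR called 0 of 6 beside 7.62% of all genes, DESeq2 called 0, and 1 gene (SIX5) had an unadjusted p under 0.05. At 120 days (Hb vs Lb) edgeR called 0 of 6 beside 3.85% of all genes, DESeq2 called 0, and 3 genes (SIX5, EYA2 and EYA3) had an unadjusted p under 0.05. The median log2 fold change of the 6 genes was 0.28 at 30 days and -0.52 at 120 days, against 0.0020 and 0.0044 for all genes tested.

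SIX5 was higher in each LC library than in each HZ library of the same age. At 30 days it was 1.55 times as high in La as in Ha (0.63 ± 0.14, adjusted p = 0.0168), under the fold threshold, and at 120 days its log2 fold change was 0.65 ± 0.24 (adjusted p = 0.143). In the same direction, the Sertoli marker sum was 1386 CPM in Ha and 2952 in La, and 480.3 in Hb and 662 in Lb. INHA, which led it, had 513 CPM in Ha and 1469 in La. The stromal marker sum was 4624 CPM in Ha and 6972 in La, and 402 in Hb and 2868 in Lb. Of 8 Sertoli markers 3 were called at 30 days and 0 at 120 days. Of 10 stromal markers 0 and 5 were called, beside 7.62% and 3.85% of all genes. The part of either sum was not tested. EYA2 was lower in Lb than in Hb in every library (-0.74 ± 0.22, adjusted p = 0.0868), and at 30 days the breeds overlapped (-0.23 ± 0.21, adjusted p = 0.465). EYA3 likewise was lower in each Lb library than in each Hb library (-0.44 ± 0.15, adjusted p = 0.116). At 120 days the spermatid markers had a mean sum of 6797 ± 1242 CPM in Hb and 3576 ± 542 in Lb, a difference in the same direction as EYA2 and EYA3, and its part in these differences was not tested. SIX2 had a log2 fold change of 0.98 ± 0.45 in Ha vs La (adjusted p = 0.161), and EYA4 had 0.56 ± 0.62 in Hb vs Lb (adjusted p = 0.606).

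Whether the change with age differs between breeds was tested in a fit of all 12 libraries, where a positive value means a higher change in LC testes. edgeR called 0 of 6 genes beside 5.14% of all genes, DESeq2 called 0, and 2 genes (SIX2 and EYA3) had an unadjusted p under 0.05. The interaction was -1.62 ± 0.59 for SIX2 (adjusted p = 0.119), -0.43 ± 0.19 for EYA3 (adjusted p = 0.196) and -0.57 ± 0.32 for EYA2 (adjusted p = 0.310). It was -0.02 ± 0.25 for SIX5 (adjusted p = 0.986), whose falls in the breeds were nearly equal in size. For EYA4 it was 0.63 ± 0.68 and for EYA1 -1.51 ± 1.02, adjusted p = 0.618 and 0.400, so neither difference was detected with errors of that size.

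**Figure D2:**
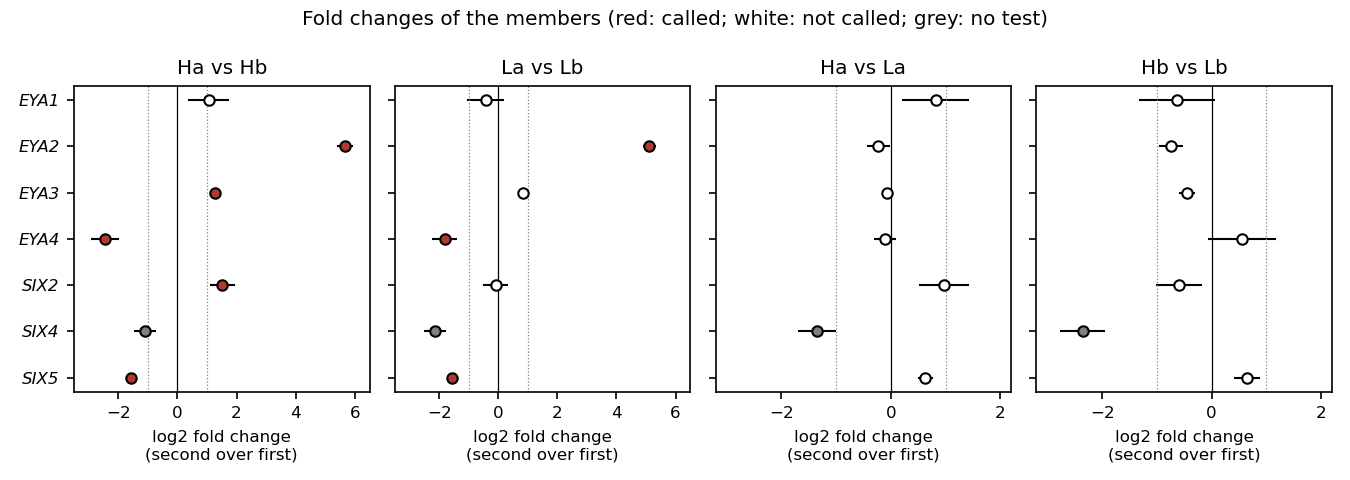
Log2 fold change (second group over first, TMM-scaled counts) of the 7 SIX-family and EYA-family genes in 4 comparisons, with SE as bars and the fold threshold as dotted lines. Red points are called, white points are not called and grey points are SIX4 values without a test, and EYA2 has the highest values in both age comparisons (5.67 and 5.12).

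Levels of different genes are compared per length, in FPKM of the authors. At 30 days the order in Ha was EYA3 (10.2 ± 0.407 FPKM), SIX5 (5.80 ± 0.616), EYA2 (2.87 ± 0.637), EYA4 (1.91 ± 0.335), SIX4 (0.963 ± 0.424), SIX2 (0.243 ± 0.0764) and EYA1 (0.140 ± 0.10). In this order EYA2 and EYA4 were apart by about their spread, and SIX2 and EYA1 did not differ beyond theirs. In La the order was EYA3 (9.62 ± 1.22), SIX5 (8.79 ± 1.24), EYA2 (2.40 ± 0.270), EYA4 (1.80 ± 0.430), SIX2 (0.473 ± 0.162), SIX4 (0.370 ± 0.0917) and EYA1 (0.223 ± 0.0404). Here EYA3 and SIX5 did not differ beyond their spread, and neither did EYA2 and EYA4 or SIX2 and SIX4.

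At 120 days EYA2 led in both breeds. In Hb the order was EYA2 (103.6 ± 20.5 FPKM), EYA3 (17.4 ± 1.29), SIX5 (1.40 ± 0.286), SIX2 (0.500 ± 0.0529), SIX4 (0.320 ± 0.0693), EYA4 (0.260 ± 0.165) and EYA1 (0.230 ± 0.0800), and the last 3 did not differ beyond their spread. In Lb the order was EYA2 (66.9 ± 11.5), EYA3 (13.9 ± 1.55), SIX5 (2.39 ± 0.346), EYA4 (0.387 ± 0.235), SIX2 (0.353 ± 0.0493), EYA1 (0.163 ± 0.126) and SIX4 (0.0700 ± 0.0173), where EYA4 and SIX2, and likewise EYA1 and SIX4, did not differ beyond their spread. Among the genes above 0 FPKM, EYA2 moved from percentile 49.8 in Ha to 97.5 in Hb and from 47.6 in La to 95.9 in Lb.

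The make-up of the EYA family therefore turned over with age. EYA2 made 18.9 ± 3.85% of the summed FPKM of the EYA genes in Ha, 85.1 ± 1.60% in Hb, 17.3 ± 3.80% in La and 82.0 ± 3.16% in Lb. EYA3 made 67.5%, 14.5%, 68.4% and 17.3%, and EYA4 12.6%, 0.214%, 12.7% and 0.473%. The sum itself was 15.1 FPKM in Ha, 121 in Hb, 14.0 in La and 81.3 in Lb. Shares within a library do not depend on its scaling, but a lower share does not mean that a gene fell, as EYA3 shows.

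**Figure D3:**
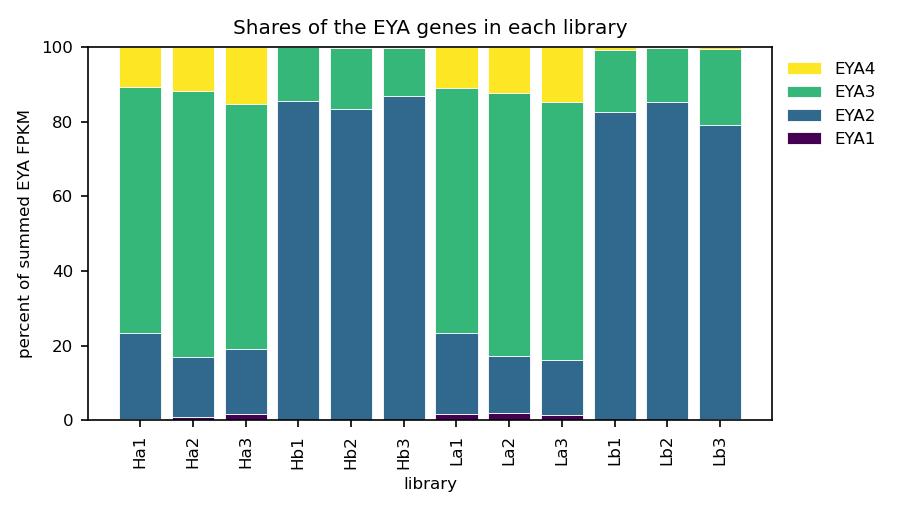
Percent of the summed FPKM of the EYA genes held by each gene, as stacked bars, 1 bar per library. EYA2 holds 18.9% on average in Ha and 85.1% in Hb, and EYA3 holds 67.5% and 14.5%.

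SIX6, known for eye and pituitary development, was counted 14, 17 and 12 times in Ha and 0 to 5 times elsewhere. It passed the filter through Ha alone, so its log2 fold changes of -1.82 ± 0.68 in Ha vs Hb and -2.61 ± 0.74 in Ha vs La are a description. The former was -2.76 without Hb3, and the latter -3.47 without La1 and -1.99 without La3. SIX3, counted 0 to 9 times, was not tested.

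Genes linked to the SIX-family and EYA-family genes (network genes) were taken from 6 lists of 49 genes. Of these, 46 are in the table (PAX8, TLE1 and H2AX were not matched by symbol). Besides partners and targets, the lists hold other SIX genes, and DMPK, KIT and KITLG for the SIX5 locus and phenotype. In Ha vs Hb 33 were tested, and 4 were called higher beside 28.2% of all genes and 16 lower beside 23.2%, with a median log2 fold change of -1.01 against -0.020 for all genes tested. In La vs Lb 32 were tested, and 4 were called higher beside 27.5% of all genes and 11 lower beside 20.1%, with a median of -0.78 against 0.011. Some genes of the lists (GATA4, SOX9 and WT1) are also Sertoli cell markers, whose sum was lower at 120 days, and the part of cell composition was not tested. Between breeds 5 of 33 were called at 30 days (median 0.04) beside 7.62% of all genes, and 5 of 30 at 120 days (median 0.43) beside 3.85%. Genes that passed the filter through the higher group alone made 4 of the 20 calls with age in HZ testes, 2 of 15 in LC testes, 3 of 5 between breeds at 30 days and 0 of 5 at 120 days.

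The breed counts depended on which library was left out, as did the calls over all genes. The count in Ha vs La was 2 without Ha1, La2 or La3, 3 without Ha2 or La1, and 7 without Ha3. Calls over all genes were 1192 with all libraries and 890, 874 and 831 without Ha1, La2 or La3. They were 887 and 936 without Ha2 or La1, and 1466 without Ha3. In Hb vs Lb the count was 0 without Hb3, Lb1, Lb2 or Lb3, and 8 without Hb2. Calls over all genes there were 628 with all libraries, 119, 182, 97 and 139 without Hb3, Lb1, Lb2 or Lb3, and 1029 without Hb2.

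PAX and DACH genes (10 in the table) had 3 called higher and 2 lower of 6 tested in Ha vs Hb (beside 28.2% and 23.2% of all genes), and 2 higher and 2 lower of 5 tested in La vs Lb (beside 27.5% and 20.1%). PAX1, a paired-box factor of the axial skeleton and thymus, rose from 0.343 to 3.96 CPM in LC testes (3.53 ± 0.51). There 1 La library and 3 Lb libraries reached the cutoff of the filter. In HZ testes, where it passed the filter through Hb alone, it had 0.209 CPM in Ha and 18.5 in Hb (6.44 ± 0.53). PAX5, a B-cell factor also known in testis, rose by similar amounts in HZ (2.17 ± 0.38) and LC testes (2.13 ± 0.30). DACH1, a corepressor that acts with SIX-family proteins, fell in HZ (-1.38 ± 0.32, adjusted p = 0.00613) and in LC testes (-1.36 ± 0.23, adjusted p = 0.000875). DACH2, its paralogue, rose in HZ testes (2.32 ± 0.30, adjusted p = 0.000395) and had 0.97 in LC testes (adjusted p = 0.0693), with an interaction of -1.35 (adjusted p = 0.125). PAX7, a factor of muscle stem cells, fell in LC testes (-2.01 ± 0.36). On log2(FPKM + 1) the fold of each of these called genes other than PAX1 in HZ testes was under the threshold. PAX3, named after its values were seen, passed the filter through Ha alone and had -1.75 ± 0.67 in HZ testes (-2.46 without Hb3).

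Between breeds at 30 days edgeR called 0 of 5 PAX and DACH genes, DESeq2 called 0, and 1 had an unadjusted p under 0.05. At 120 days 2 of 5 were called beside 3.85% of all genes, both lower in Lb. PAX1 had -2.19 ± 0.46 (adjusted p = 0.0397), a call lost without Hb3 (adjusted p = 0.101), Lb1 (0.0777), Lb2 (0.133) or Lb3 (0.123). DACH2 had -1.53 ± 0.34 (adjusted p = 0.0454), a call lost without Hb1 (0.0848), Hb3 (0.123), Lb1 (0.122), Lb2 (0.114) or Lb3 (0.149).

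Of 7 corepressors and phosphatase partners tested, 1 was called lower in Ha vs Hb beside 23.2% of all genes and 2 in La vs Lb beside 20.1%. SKI, a corepressor that binds DACH proteins, fell in both breeds, from 149 to 50.03 CPM in HZ testes (-1.56 ± 0.11, adjusted p = 1.97e-05) and from 156 to 68.5 CPM in LC testes (-1.14 ± 0.11, adjusted p = 2.83e-05). ESR2, the estrogen receptor that EYA2 dephosphorylates, had -1.01 ± 0.36 in La vs Lb (adjusted p = 0.0332), a call lost in 12 of 15 alternatives, among them each La library (adjusted p between 0.0578 and 0.112), Lb1 (0.0748) and Lb2 (0.0880) left out. Between breeds edgeR and DESeq2 each called 0 of 7 in this list at both ages, with 2 at an unadjusted p under 0.05 at 30 days and 1 at 120 days.

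Of the gonad development genes, which act with or after SIX4, 5 of 8 tested were called in Ha vs Hb, all lower (median -1.41), beside 23.2% of all genes called lower. In La vs Lb 4 of 9 were called lower beside 20.1% of all genes and 1 higher beside 27.5% (median -1.11). SOX9 and WT1, which mark Sertoli cells, were called in neither breed. GATA4, a zinc-finger factor of somatic gonad cells, fell in HZ (-2.19 ± 0.18, adjusted p = 4.53e-05) and LC testes (-1.48 ± 0.16). NR5A1, the master factor of steroidogenic cells, fell in HZ (-2.09 ± 0.21, adjusted p = 0.000124) and LC testes (-1.38 ± 0.13). ZFPM2, the cofactor of GATA4, fell in HZ (-2.95 ± 0.43, adjusted p = 0.000646) and LC testes (-2.83 ± 0.34). CBX2, a Polycomb protein, fell in HZ testes (-1.11 ± 0.21, and -0.91 without Hb1, under the fold threshold), and LHX9, a LIM homeodomain factor of the early gonad, fell in LC testes (-1.37 ± 0.19). Named after their values were seen, LHX9 also fell in HZ testes (-1.70 ± 0.35) and NR0B1 was the gene that rose in LC testes (1.68 ± 0.24). With these falls stand those of the Sertoli, Leydig and stromal marker sums, whose part was not tested.

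Between breeds at 30 days, 2 of 9 gonad development genes were called beside 7.62% of all genes, and 1 of them, SRY, passed the filter through La alone. SRY, the testis-determining gene, was counted 0, 0 and 0 times in Ha, 16.0, 14.4 and 15.3 times in La, 0, 1 and 0 times in Hb, and 3.25, 0 and 14.5 times in Lb. With a floor of 3 counts per library its level in La was at least 5.65-fold that in Ha, as a description. NR0B1, an orphan nuclear receptor that opposes NR5A1, was lower in La than in Ha (-1.21 ± 0.23, adjusted p = 0.0105; -0.94 on log2(FPKM + 1)). At 120 days edgeR called 0 of 8, DESeq2 called 1, and 4 had an unadjusted p under 0.05.

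Of the targets and partners in kidney and muscle, 4 of 7 tested were called lower with age in HZ testes beside 23.2% of all genes, and 2 of 7 in LC testes beside 20.1%. EZR, a linker of membrane and actin, fell from 544.5 to 124 CPM in HZ testes (-2.12 ± 0.24). CITED1, a cofactor of kidney progenitors, fell there too (-1.74 ± 0.27). SALL1, also of kidney progenitors, passed the filter through the 30-day group alone in each breed and had -4.19 ± 0.99 in HZ testes (-3.13 without Ha3) and -4.00 ± 0.52 in LC testes (-4.66 without Lb3). CCND1, a cyclin, had -1.01 ± 0.24, and the fold was under the threshold without Ha1 (-0.86), Ha2 (-0.96), Hb1 (-0.90) or Hb3 (-0.93) and by DESeq2 (-0.97). In LC testes GDNF fell (-2.70 ± 0.36). GDNF, the Sertoli cell factor for spermatogonial stem cells, was higher in La than in Ha (1.33 ± 0.32, adjusted p = 0.0248), a call lost without Ha1 (adjusted p = 0.0773), Ha2 (0.0590), La2 (0.0815) or La3 (0.0785). OSR1 was higher in Lb than in Hb (1.12 ± 0.17, adjusted p = 0.0182), a call lost without Hb3 (adjusted p = 0.0599), Lb1 (0.0585), Lb2 (0.0699) or Lb3 (0.0723). The fold of GDNF in both comparisons was under the threshold on log2(FPKM + 1). The Sertoli marker sum was also higher in La (2952 CPM) than in Ha (1386 CPM), and in Lb (662 CPM) than in Hb (480.3 CPM). The stromal marker sum was higher in Lb (2868 CPM) than in Hb (402 CPM), and in La (6972 CPM) than in Ha (4624 CPM). The part of either was not tested.

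Of the SIX5 locus and phenotype genes, 3 of 3 were called lower with age in HZ testes beside 23.2% of all genes, and 1 of 3 in LC testes beside 20.1%. In Ha vs La edgeR called 0 of 3, DESeq2 called 0, and 1 had an unadjusted p under 0.05. DMPK, the kinase gene of myotonic dystrophy, fell in HZ testes from 23.8 ± 6.01 to 4.69 ± 0.139 CPM (-2.33 ± 0.23, adjusted p = 0.000100) and in LC testes from 25.8 ± 5.08 to 10.4 ± 0.693 CPM (-1.28 ± 0.19). Between Ha and La it had 0.10 (adjusted p = 0.762). KITLG, the ligand of KIT, had -1.99 ± 0.21 with age in HZ testes and -0.95 ± 0.17 in LC testes (adjusted p = 0.00137), which is under the fold threshold and past it in 5 alternatives. KIT, the receptor of differentiating spermatogonia, had -1.01 ± 0.27 in HZ testes, and the fold was under the threshold without Ha1 (-0.88), Ha2 (-0.93), Hb1 (-0.86) or Hb3 (-0.89) and by DESeq2 (-0.96). In Hb vs Lb DMPK (1.19 ± 0.22, adjusted p = 0.0264) and KITLG (1.04 ± 0.19, adjusted p = 0.0275) were higher in Lb. Both calls were lost without Hb3 (adjusted p = 0.0807 and 0.0829), Lb1 (0.0736 and 0.0885), Lb2 (0.0944 and 0.0791) or Lb3 (0.103 and 0.0977), and that of DMPK also without Hb1 (0.0501). The stromal marker sum (402 CPM in Hb, 2868 in Lb) was also higher in Lb. The mean Leydig sum was higher too (1539 and 5109 CPM), but the groups overlapped, with 4021 CPM in Hb1 and 3055 in Lb3. Of 7 Leydig markers 0 were called in Hb vs Lb, beside 3.85% of all genes. The part of either sum was not tested.

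By position in Sscrofa11.1, SIX4 (ncbi_100153985) lies at chr1:189670390-189682378 and SIX6 at chr1:189497807-189503189. SIX2 (ncbi_100525814, chr3:95460046-95463428) and SIX3 are neighbours with a gap of 57902 bp. SIX5 (ncbi_100626906, chr6:52095332-52099458) lies on the same chromosome as EYA3 (ncbi_100514654, chr6:85095409-85185856). Of the EYA genes, EYA3 spans 90448 bp and the others more: EYA1 (ncbi_100737938, chr4:63970939-64328107) spans 357169 bp, EYA4 (ncbi_100157256, chr1:30260784-30575593) 314810 bp and EYA2 (ncbi_100624872, chr17:48930682-49243789) 313108 bp. EYA2 and EYA4, which moved in opposite directions with age, thus have similar spans.

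Within 100 kb of the 7 genes lie 26 other genes of the table, 12 of them beside SIX5 and 0 beside EYA4. MNAT1, a subunit of the kinase complex of TFIIH that begins 7965 bp from SIX4, rose in HZ (1.97 ± 0.17) and LC testes (1.68 ± 0.14). Beside EYA3, THEMIS2 fell in HZ (-2.21 ± 0.31) and LC testes (-1.90 ± 0.32), XKR8, a scramblase gene 2242 bp away, fell in HZ testes (-1.35 ± 0.24), and PTAFR fell in LC testes (-1.13 ± 0.24, and -0.91 without Lb1). These neighbours of EYA3 did not share its rise.

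Around SIX5, RSPH6A, a radial spoke gene of sperm flagella, had 0.0269 CPM in Ha, 84.8 ± 43.1 in Hb, 0.0337 in La and 15.1 ± 2.81 in Lb, and passed the filter through the 120-day libraries alone in each breed. It was lower in Lb than in Hb (-2.44 ± 0.39, adjusted p = 0.0199), a call lost without Hb3 (0.0528), Lb1 (0.0630), Lb2 (0.0888) or Lb3 (0.0710). FOXA3 rose in LC testes (2.05 ± 0.36) and had 1.63 ± 0.52 in HZ testes, a call lost without Ha1 (adjusted p = 0.0628), Ha2 (0.0794), Ha3 (0.0565) or Hb1 (0.90, adjusted p = 0.0662). EML2 fell in HZ testes (-1.26 ± 0.31), and SYMPK rose in LC testes (1.07 ± 0.16), where its fold was under the threshold without Lb2 (0.87) and with total counts (0.90). SLC2A10, a glucose transporter gene near EYA2, passed the filter in Ha vs Hb through Ha alone and was at 0 counts in all Hb libraries, at least 9.21-fold lower than in Ha. This bound rests on the Ha mean, whose spread was wide (1.56 ± 1.35 CPM). LOC110260276, near EYA1, passed the filter through Lb alone and had 3.83 ± 0.73 in LC testes (5.14 without La2).

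The lncRNA table holds 5 transcripts that overlap one of the 7 genes or lie within 10 kb, and 2 of them passed the filter and were tested. Each was called in 1 age comparison, where 56.2% of lncRNAs were called for HZ testes and 61.1% for LC testes, but each passed the filter there through its higher group alone, so these values are a description. Neither was called between breeds by edgeR, where the shares were 6.35% at 30 days and 3.14% at 120 days. MSTRG.22889.1, an assembled transcript of 3 exons on the minus strand at chr17:49088470-49103258, lies inside an intron of EYA2 by the class code of the assembly. It was counted 0, 0 and 0 times in Ha, 38, 38 and 56 times in Hb, 0, 0 and 0 times in La, and 12, 3 and 7 times in Lb, so it was seen in every 120-day library and in no 30-day library. These were also the libraries in which EYA2 was high, and as the transcript lies within EYA2, reads that the features may share cannot be told apart. With a floor of 3 counts per library its level in Hb was at least 13.8-fold that in Ha, and its level in Lb at least 1.92-fold that in La. In Hb vs Lb it had -2.71 ± 0.57 (adjusted p = 0.0541), a difference that DESeq2 called (adjusted p = 0.00395, with a range of 0.00395 to 0.195 over its alternatives).

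LOC110261013, a lncRNA whose transcript at chr6:52098570-52100347 overlaps SIX5, was counted 18, 19 and 18 times in Ha, 10, 13 and 5 times in Hb, 23, 28 and 19 times in La, and 7, 6 and 8 times in Lb. It had -2.13 ± 0.44 in LC testes, where it passed the filter through La alone, and -1.16 ± 0.45 in HZ testes (adjusted p = 0.0615), the same signs as SIX5. The genes overlap. Per the study's methods, the second cDNA strand held dUTP and was digested before sequencing. The authors' text does not state whether reads were counted by strand, so shared reads cannot be told apart.

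Genes of like pattern were listed by Pearson r of log2 CPM over the 12 libraries, which fall into 2 ages and share breed and cell composition, so high values are common. EYA2 was most like TPD52L3 (0.999), CCHCR1 (0.998) and IFT140 (0.998). EYA3 was like PLEKHF2 (0.990) and TTC17 (0.990), and SIX5 most like CCDC8 (0.993), DAG1 (0.992) and LRRK1 (0.992). EYA4 was most like NANS (0.975), NAB2 (0.969) and ESRP1 (0.969), and SIX4 most like SLC4A4 (0.953), CADM3 (0.947) and BOC (0.937). The low-count genes had lower values, with LURAP1L (0.901), LRRC45 (0.890) and ATXN7L1 (0.878) for SIX2 and TMEM200C (0.819), C4H8orf34 (0.798) and MYRIP (0.790) for EYA1. Between the genes themselves r was 0.949 for EYA2 and EYA3, -0.947 for EYA2 and SIX5, and -0.890 for EYA2 and EYA4.

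SIX4 was also measured by the study with quantitative PCR, and the primers are shown because they define the stretch of SIX4 that was amplified. Each is 20 bases long with a GC content of 55.0%.
SIX4 forward: gatccccaattccggagcaa
SIX4 reverse: gtgctcccatctgaagtgct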

How the data were processed

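RNA-seq of whole testis gave 12 libraries in 4 groups of 3. Per the study's methods, the authors trimmed reads with fastp 0.18.0, removed rRNA reads with Bowtie2 2.2.8, aligned the rest with HISAT2 2.1.0 to Sus scrofa 11.1 and assembled transcripts with StringTie 1.3.4. The deposited tables hold estimated counts (expected counts, not normalized, by a counter that is not named) and FPKM of the authors, per gene for coding genes and per transcript for lncRNAs. The deposited positions of assembled lncRNA exons were used to place lncRNAs. Counts were rounded and fitted with edgeR 4.0.16 in R 4.3.3 (TMM, filterByExpr with a minimum count of 10, quasi-likelihood test) on each whole table, for both ages within each breed, both breeds at each age and, over all 12 libraries, breed by age. The pipeline was tested on simulated data. Alternatives were DESeq2 1.42.0, RLE size factors, 2 other filters, limma 3.58.1 on FPKM, 12 libraries in 1 fit, a replicate block, each library left out and, chosen after seeing the data, total counts. Named were all members, SIX3, SIX6, DACH1 and DACH2, up to 4 called genes per list and comparison with the smallest adjusted p, called neighbours within 100 kb and up to 3 genes of like pattern per member, and some results under this rule are not reported here. A planned test of SIX4 in La vs Lb was dropped, since the same libraries chose it. The members and lists were chosen with earlier results of these data known.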

Additional observations from a re-analysis of the deposited data

Results flagged for a closer look

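For 6 of 35 network genes tested, beside 5.14% of all genes, the change with age differed between the breeds by edgeR's test of the interaction over 12 libraries. Among these 6, KIT and DMPK come from the SIX5 locus and phenotype list and were not listed as partners. The count includes PAX1, whose value is a description. Without Ha1, Ha2 or La3 all these calls but that of NR0B1 were lost. Calls over all genes then fell from 890 to 437, 501 and 461. NR0B1 had 2.07 ± 0.33 on the log2 scale (adjusted p = 0.00740): it rose in LC testes (1.68 ± 0.24) and had -0.41 ± 0.23 in HZ testes, and the call was kept in every alternative run.

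EZR had 1.34 ± 0.34 (adjusted p = 0.0382), a call lost without Ha1, Ha2, Hb2, Hb3, La1, La2, La3 or Lb2 (1.05 without Lb2). KIT had 1.299 ± 0.34 (adjusted p = 0.0410), a call lost in 10 of 17 alternatives. PAX1 passed the filter between the HZ ages through Hb alone, so its value of -2.94 ± 0.77 is given as a description with no test. GDNF had -1.90 ± 0.49 (adjusted p = 0.0414), lost in 12 of 17, and DMPK 1.04 ± 0.28 (adjusted p = 0.0493), lost in 15 of 17.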

How the results depend on the processing

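Of 4164 alternative values for single genes, 3777 kept their sign and their side of the threshold, 100 changed sign without a call in either fit, 205 lost a call, 74 gained a call and 8 (of SIX4) moved without a test; none reversed a called change. The count of SIX-family and EYA-family genes called in Ha vs Hb was 5, 3 on log2(FPKM + 1) and on log2(FPKM + 0.1), and 4 to 5 leaving out a library. Total counts, an alternative chosen after seeing the data, gave 4. In La vs Lb it was 3 with any library left out, and between breeds 0. Of the network genes, 5 in Ha vs La became 0 on log2(FPKM + 1), and 2 to 7 leaving out a library. In Hb vs Lb 5 became 2 on log2(FPKM + 1), 0 with the replicate block and 0 to 8 leaving out a library. Calls over all genes moved too, in Ha vs La from 1192 to 507 on log2(FPKM + 1) and 831 to 1466 leaving out a library. In Hb vs Lb they moved from 628 to 513 on log2(FPKM + 1), 154 with the replicate block and 97 to 1029 leaving out a library. The cause was not tested. The replicate block is no better supported, since deviations of libraries with the same number had r between -0.0381 and 0.0529 over 18 pairs. EYA1 and SIX2 had 4 to 32 and 6 to 20 counts, and the part of depth was not tested.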
